A study of Homo sapiens with 14 samples.

Results

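Transcripts of 10 genes of the Notch pathway were followed in HEK293T cells given a miR-34a duplex, the same duplex lacking 2 guide bases, or a control siRNA. The genes were taken by symbol from the deposited count table, and all 10 were found among its 63140 genes: the receptors NOTCH1, NOTCH2 and NOTCH3, the ligands JAG1, JAG2 and DLL1, the nuclear proteins MAML1 and RBPJ, the target gene HES1 and the inhibitor NUMB. The miR-34a-WT libraries (n = 5) came from cells transfected with the unmodified duplex. For the miR-34a-RS libraries (n = 4, numbered 1, 2, 3 and 5) the duplex carried rSpacer residues, which have a backbone but no base, at guide positions 13 and 14. Control libraries (n = 5) came from cells transfected with the AllStars negative control siRNA. All 14 libraries are of HEK293T, a line derived from human embryonic kidney that carries the SV40 large T antigen, and RNA was taken 24 h after transfection in every group. The comparison asks what pairing beyond the seed adds to targeting by a microRNA. The dose of the duplexes is not given in the sources used here, and no label says that replicates came from separate cultures. The p-values therefore describe how these libraries vary, a spread that may be technical.

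In Notch signalling a transmembrane receptor is cut after it binds a ligand on a neighbouring cell, and the freed intracellular domain enters the nucleus. There it joins the DNA-binding protein RBPJ and a Mastermind-like coactivator such as MAML1 to switch on HES and HEY genes, whereas NUMB binds the receptor and opposes it. The microRNA miR-34a is induced by p53, and NOTCH1, NOTCH2, JAG1 and DLL1 are among its reported targets in other cells. A microRNA guide finds a transcript mainly through its seed, positions 2 to 8, and pairing around positions 13 to 16 is called supplementary.

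The guide and a selection of the Notch seed matches are shown so that the missing bases can be set beside them. Other matches, not printed, also have bases that could pair with positions 13 and 14. The mature miR-34a sequence is RefSeq's, on the minus strand of chr1:9151735-9151756 in GRCh38.p14, printed first with its seed in capitals and then with positions 13 and 14 in capitals. The Notch windows are up to 30 bases ending at the seed match, from GENCODE 29 transcripts on GRCh38, with the match in capitals. In the coding window of NOTCH3 the 4 bases AGCT that can pair with guide positions 13 to 16 are in capitals too. An 8mer match reads CACTGCCA, a 7mer-m8 match CACTGCC, a 7mer-A1 match ACTGCCA and a 6mer match ACTGCC. Each of the 3 shorter strings lies within the 8mer, so a site was counted under its longest class, and only the transcript strand was read.
miR-34a guide, seed: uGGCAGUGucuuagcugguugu
miR-34a guide, positions 13 and 14: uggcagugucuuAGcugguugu
NOTCH3 coding, chr19:15161231-15161260, minus strand: ttgaggggccctatgcAGCTgcCACTGCCA
NOTCH3 3′ UTR, chr19:15159953-15159982, minus strand: atagccttgctggggaagggccCACTGCCA
NOTCH2 3′ UTR, chr1:119912834-119912863, minus strand: ggtttcagtgatgaggaggacaaCACTGCC
NOTCH1 3′ UTR, chr9:136495885-136495914, minus strand: tgtacttttattttacacagaaaCACTGCC
JAG1 3′ UTR, chr20:10638190-10638219, minus strand: ctgtttagatttgccatagagtaCACTGCC
DLL1 3′ UTR, chr6:170282575-170282604, minus strand: ctgaattacgcataagaagcatgCACTGCC
NUMB coding, chr14:73277111-73277140, minus strand: cagttctccagcctcctccaccCACTGCCA
MAML1 3′ UTR, chr5:179777170-179777199, plus strand: tcctattaatccccatattcttctACTGCC

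In the 3′ UTR of the principal transcript, the isoform that the annotation marks as the main coding form of a gene, all 3 receptors and the ligands JAG1 and DLL1 had an 8mer or 7mer-m8 match. DLL1 had 3 matches of the 7mer-m8 class within 668 bases of 3′ UTR. NOTCH1 and JAG1 had 2 each, and the first in JAG1 starts at base 12 after the coding region. NOTCH2 had a 7mer-m8 and a 6mer, and NOTCH3 an 8mer. MAML1 and NUMB had a 6mer each, and JAG2, RBPJ and HES1 had no match of any class in that 3′ UTR. Among the 13611 tested genes that have an annotated 3′ UTR, 16.03% had an 8mer or 7mer-m8 in the 3′ UTR of the principal transcript. For NOTCH2 the longest 3′ UTR belongs to a transcript that ends inside the gene and holds 6mers alone, so the principal transcript was used in the text, a choice made after that was seen.

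Coding regions held matches as well. NOTCH3 had 3 8mers and a 7mer-m8 there, NOTCH2 had 2 8mers and a 7mer-m8, NOTCH1 had an 8mer and 2 7mer-m8 matches, JAG2 the same classes in the same numbers as NOTCH1, NUMB an 8mer and a 7mer-m8, and JAG1 a 7mer-m8. In JAG2 the 8mer, at bases 1561 to 1568, overlaps the 7mer-m8 at bases 1567 to 1573. DLL1, MAML1, RBPJ and HES1 had neither class. Among 13475 tested genes with an annotated coding region, 20.1% had an 8mer or 7mer-m8 and 0.0965%, or 13 genes including NOTCH3, had at least 3 8mers. Of these coding sites and the 3′ UTR sites, 6mers there included, the NOTCH3 coding match at base 6390 of 6966 was the only one with AGCT placed so that it could pair with guide positions 13 to 16, searched with 1 to 15 bases between the partners of positions 8 and 13. There 2 bases lay between them, and the matching run reached position 17. Such a coding match occurred in 337 genes (2.501%), whose median log2 fold change was 0.05 in the miR-34a-RS to miR-34a-WT comparison, beside -0.0029 over all tested genes. In the same comparison the median was 0.02 for the 2704 genes with any 8mer or 7mer-m8 in the coding region and 0.11 for the 13 genes with at least 3 coding 8mers. NOTCH3 belongs to all of these classes, so the median of 1 class does not single out the AGCT match. A match is a description of letters, not a site shown to be used.

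**Figure D1:**
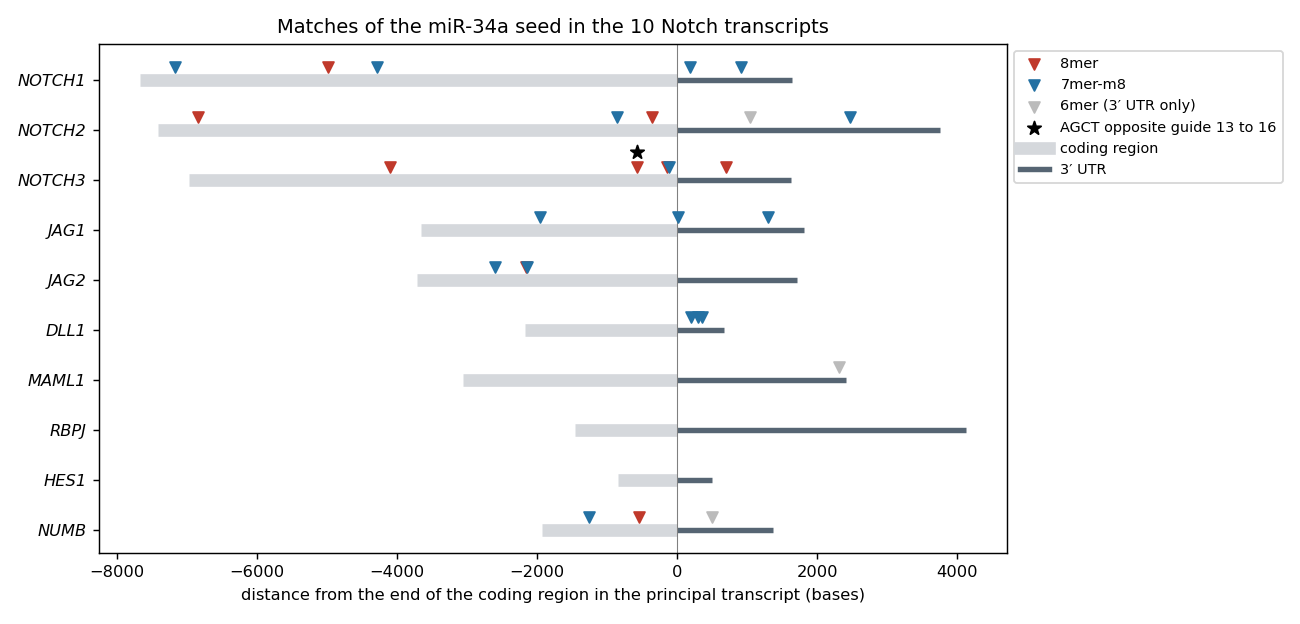
Matches of the miR-34a seed along the coding region (grey bar) and 3′ UTR (dark bar) of the principal transcript of each gene, as the distance in bases from the end of the coding region. Triangles mark match classes and the star marks the NOTCH3 coding 8mer with AGCT opposite guide positions 13 to 16. RBPJ and HES1 carry no mark, and 6mers are drawn for 3′ UTRs only.

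The libraries held 22.2 to 36.3 M counts each, and all 10 genes passed the filter on low counts that left 18321 tested genes. Levels are CPM, counts divided by the library total in M after scaling by TMM, edgeR's trimmed-mean factor. The 5 marker genes listed for the HEK293T line had means above 1 CPM in every group, and 0 of 4 endothelial and 2 of 7 fibroblast markers did. Summed endothelial markers were 0.560 to 1.09 CPM in miR-34a-WT, 0.642 to 0.937 in miR-34a-RS and 0.404 to 0.651 in control libraries. Summed fibroblast markers overlapped between all groups, at 27.6 to 32.2 CPM in miR-34a-WT, 28.1 to 34.2 in miR-34a-RS and 25.2 to 34.4 in control libraries, and COL1A2 was at 0 in every library. In bulk RNA, fewer cells expressing a gene and less of its RNA per cell cannot be told apart.

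With miR-34a-WT, 7 of the 10 genes were lower than in control cells, 1 was higher and 2 did not pass the test, the quasi-likelihood test of edgeR with Benjamini-Hochberg adjustment at 0.05. Over all tested genes 40.2% were called in that comparison, 21.3% lower and 18.9% higher. The median log2 fold change of the 10 genes was -0.46, against -0.02 over all tested genes. With miR-34a-RS, 7 were again lower, 1 higher and 2 not called, against 34.6% called over all genes, 18.4% lower and 16.2% higher, with medians of -0.40 and -0.01. The miR-34a-WT and miR-34a-RS comparisons use the same control libraries, so their values are given side by side and are not independent. With miR-34a-RS against miR-34a-WT, NOTCH3 and NUMB were higher, 0 were lower and 8 were not called, where 1.56% of all genes were called, 1.03% higher and 0.535% lower. Same-numbered libraries of these 2 groups deviate together, and with the replicate number as a block NOTCH1, NOTCH3, MAML1 and NUMB were called higher and HES1 lower, where 13.5% of all genes were called.

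**Figure D2:**
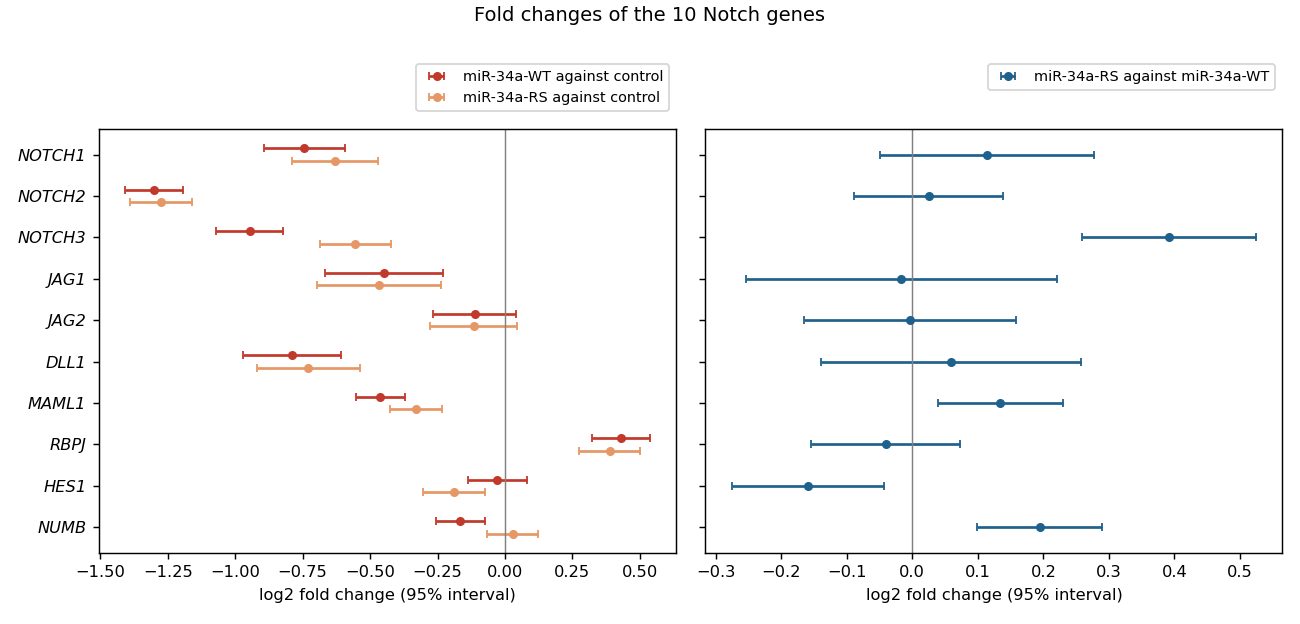
Log2 fold change of each gene (point) with its 95% interval (bar), from edgeR's fit over 14 libraries. Left, miR-34a-WT and miR-34a-RS against control; right, miR-34a-RS against miR-34a-WT, on a narrower axis. NOTCH2 is lowest with both duplexes, RBPJ is the gene right of 0 with both, and NOTCH3 stands farthest right between the duplexes at 0.39.

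All 3 receptors fell with both duplexes. NOTCH2 had 129, 106, 115, 127 and 120.1 CPM in the miR-34a-WT libraries and 131, 115, 120.1 and 120.1 CPM in the miR-34a-RS libraries, against 290.1, 314, 285, 303 and 278 CPM in control libraries. Every library with a duplex lay far below the lowest control library, and the libraries of the duplexes overlapped. NOTCH2 fell by 59.4% with miR-34a-WT (log2 fold change -1.30, SE 0.05; edgeR, adjusted p = 6.44e-16), and fell by 58.7% with miR-34a-RS (-1.27, SE 0.06; adjusted p = 5.07e-15). Those changes were the 108th and the 86th largest falls among the tested genes. The difference of miR-34a-RS from miR-34a-WT was 0.03 with a 95% interval of -0.09 to 0.14. It was not called, and a difference of either sign within those bounds remains possible. Partial copies of NOTCH2 (the NOTCH2NL genes), which can share its reads, had 774 counts in all libraries together, 0.986% of the 78509 counts of NOTCH2, and with the copies added NOTCH2 was at -1.29 and -1.26 against control.

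NOTCH3 (ENSG00000074181, chr19:15159038-15200981 on GRCh38) was the receptor called different between the duplexes both without and with the replicate block. It had 32.8, 34.3, 32.6, 32.8 and 33.4 CPM in miR-34a-WT libraries and 41.6, 42.3, 45.8 and 44.2 CPM in miR-34a-RS libraries, against 52.8, 71.1, 61.4, 66.7 and 67.5 CPM in control libraries. The 3 groups did not overlap at any point, with miR-34a-RS between the other two. Against control NOTCH3 fell by 0.95 (SE 0.06) with miR-34a-WT (edgeR, adjusted p = 3.03e-12) and by 0.56 (SE 0.06) with miR-34a-RS (adjusted p = 1.34e-07). Between the duplexes, it was higher under miR-34a-RS, by 0.39 (SE 0.06, 95% interval 0.26 to 0.52; edgeR's quasi-likelihood test, adjusted p = 0.000932), or 31.2%. That was the 508th largest rise of 18321 genes. In pairs of libraries with the same number the difference was 0.34, 0.30, 0.49 and 0.40 on the log2 CPM scale, higher in 4 of 4. NOTCH3 is also the gene with the coding match printed above, where all of positions 13 to 16 of the intact guide could pair. Shorter runs that cover positions 13 and 14 were found at other sites. They included the NOTCH3 3′ UTR match and coding matches of NOTCH1, NOTCH2, JAG1 and JAG2. Whether the NOTCH3 coding site takes part in the difference was not tested.

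NOTCH1 had 20.6, 18.5, 22.003, 22.6 and 23.2 CPM with miR-34a-WT and 21.5, 21.1, 24.3 and 25.7 CPM with miR-34a-RS, against 30.2, 36.9, 34.4, 38.7 and 39.0 CPM in control libraries. All 9 libraries with a duplex lay below all controls. NOTCH1 fell by 40.3% with miR-34a-WT (log2 fold change -0.74, SE 0.07; edgeR, adjusted p = 8.62e-09) and fell by 35.4% with miR-34a-RS (-0.63, SE 0.08; adjusted p = 4.35e-07). Set against miR-34a-WT, the miR-34a-RS level differed by 0.11 (95% interval -0.05 to 0.28, adjusted p = 0.627). With the replicate block the difference was 0.14 (SE 0.05, edgeR adjusted p = 0.0439), higher with miR-34a-RS in 4 of 4 pairs.

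**Figure D3:**
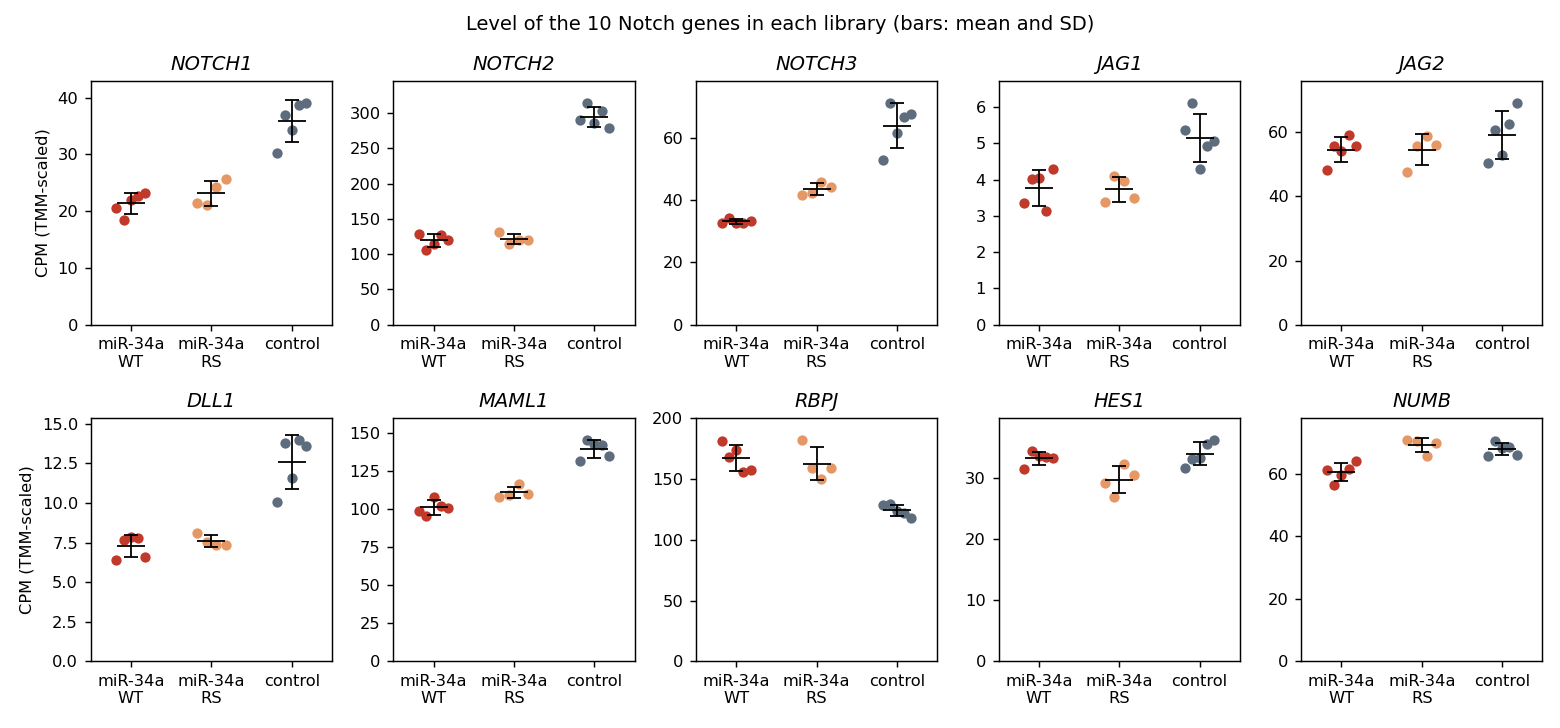
Level of each gene in every library, in CPM scaled by TMM on an axis from 0, by group, with the mean and SD as bars. NOTCH1, NOTCH2, NOTCH3, JAG1, DLL1 and MAML1 sit below all controls with both duplexes, RBPJ sits above them, and NOTCH3 separates all 3 groups.

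Per kilobase of the principal transcript, the summed receptor level was 16.6 ± 0.874 CPM/kb with miR-34a-WT (SD, n = 5) and 18.2 ± 0.648 CPM/kb with miR-34a-RS (n = 4), against 37.0 ± 1.998 CPM/kb in control cells (n = 5). NOTCH2 made up 63.1 ± 1.72% of that sum with miR-34a-WT and 58.7 ± 2.18% under miR-34a-RS, against 69.7 ± 2.20% in control cells. The NOTCH3 share was 23.1 ± 1.68% in miR-34a-WT, 27.6 ± 1.30% in miR-34a-RS and 19.9 ± 1.46% in control libraries. NOTCH2 was thus the most abundant receptor per kilobase in every library, with a lower share in all libraries with a duplex than in any control. These shares depend on the length used: with all annotated exons of each gene merged, NOTCH2 made up 55.9%, 51.3% and 63.1% in miR-34a-WT, miR-34a-RS and control libraries.

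**Figure D4:**
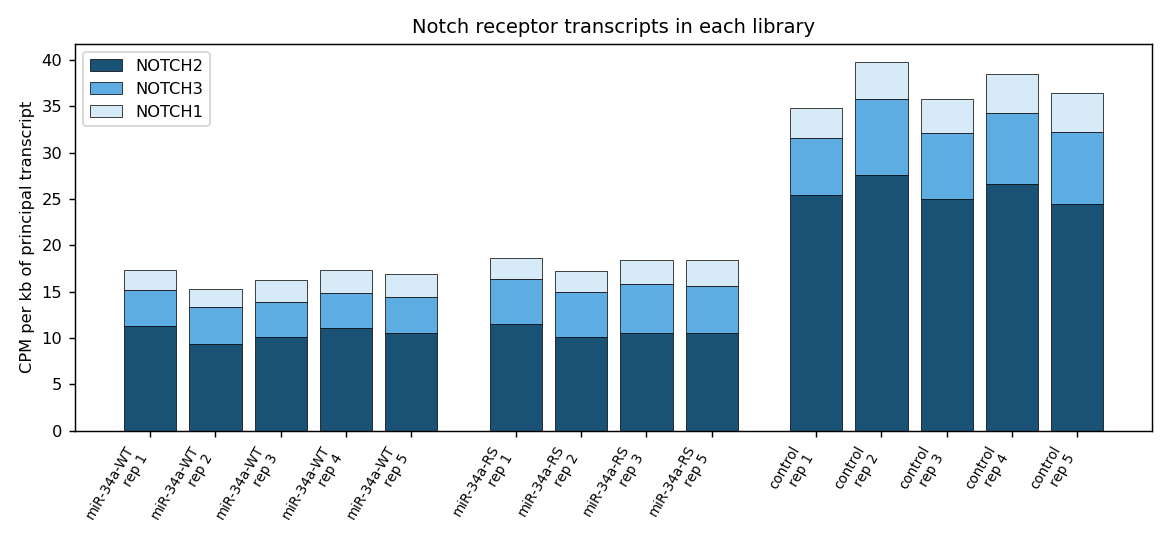
Summed level of the 3 receptor transcripts in each library, in CPM per kilobase of principal transcript, stacked as NOTCH2 (dark), NOTCH3 and NOTCH1 (light). The 5 miR-34a-WT libraries reach 15.3 to 17.3 and the 4 miR-34a-RS libraries 17.2 to 18.6, below the 5 controls at 34.8 to 39.7.

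The ligands did not move together: DLL1 and JAG1 fell and JAG2 was not called. DLL1, a ligand of the Delta family with the 3 matches in its short 3′ UTR, had 6.43, 7.66, 7.87, 7.77 and 6.61 CPM with miR-34a-WT and 8.13, 7.52, 7.35 and 7.35 CPM with miR-34a-RS, against 10.1, 13.8, 11.5, 13.98 and 13.6 CPM in control libraries. No library with a duplex reached the controls. Its log2 fold change was -0.79 (SE 0.09) with miR-34a-WT (edgeR, adjusted p = 6.53e-08) and -0.73 (SE 0.09) with miR-34a-RS (adjusted p = 6.76e-07), and the difference of 0.06 in the miR-34a-RS to miR-34a-WT comparison had an interval of -0.14 to 0.26.

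JAG1, a ligand of the Serrate family, was the lowest of the 10 genes per kilobase in every group, with 87 to 135 counts in miR-34a-WT, 112 to 144 in miR-34a-RS and 113 to 212 in control libraries. It had 3.37, 4.03, 4.03, 3.14 and 4.29 CPM with miR-34a-WT and 3.38, 4.11, 3.95 and 3.50 CPM with miR-34a-RS, against 5.37, 6.11, 4.29, 4.92 and 5.08 CPM in control libraries. The highest miR-34a-WT library and the lowest control lay side by side at 4.29, and the groups did not overlap. JAG1 fell by 0.45 (SE 0.11) with miR-34a-WT (edgeR, adjusted p = 0.00128) and by 0.47 (SE 0.11) with miR-34a-RS (adjusted p = 0.00179). Its low counts leave the widest interval of the 10 genes between the duplexes, -0.25 to 0.22 around -0.02 in the miR-34a-RS to miR-34a-WT comparison.

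JAG2, the other Serrate-family ligand, has no seed match in its 3′ UTR and 3 of the longer classes in its coding region, where the 8mer overlaps a 7mer-m8. It had 48.2, 55.6, 54.2, 59.3 and 55.7 CPM with miR-34a-WT and 47.5, 55.6, 58.9 and 56.0 CPM with miR-34a-RS, against 50.4, 60.8, 52.9, 62.7 and 69.0 CPM in control libraries, so all groups overlapped. The differences from control were -0.11 (95% interval -0.27 to 0.04, edgeR adjusted p = 0.246) and -0.12 (-0.28 to 0.05, adjusted p = 0.272). The difference of miR-34a-RS from miR-34a-WT was -0.0038 with an interval of -0.17 to 0.16. JAG2 was the most abundant ligand of the 3 per kilobase of principal transcript, at 76.2 ± 1.16% of their sum with miR-34a-WT and 75.5 ± 2.25% under miR-34a-RS, against 67.7 ± 1.36% in control cells. The DLL1 share was 18.6 ± 1.12%, 19.4 ± 2.23% and 26.5 ± 1.28% in miR-34a-WT, miR-34a-RS and control libraries.

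The nuclear proteins of the pathway moved in opposite directions. MAML1, the coactivator, had 99.03, 95.2, 108, 102 and 101 CPM with miR-34a-WT and 108, 109, 116 and 110.1 CPM with miR-34a-RS, against 131, 145, 143, 142 and 135 CPM in control libraries. Both duplexes left it below all controls, and the highest miR-34a-WT library overlapped the lowest miR-34a-RS library. It fell by 0.46 (SE 0.04) with miR-34a-WT (edgeR, adjusted p = 4.30e-09) and by 0.33 (SE 0.05) with miR-34a-RS (adjusted p = 3.90e-06), with a 6mer as its sole 3′ UTR match. The difference of miR-34a-RS from miR-34a-WT, 0.13 (SE 0.05), had an adjusted p of 0.179. With the replicate block it was 0.14 (SE 0.03, edgeR adjusted p = 0.00116), higher with miR-34a-RS in 4 of 4 pairs.

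RBPJ, which binds DNA for the pathway and recruits repressors when no receptor fragment is present, was the gene that rose. It had 181, 168, 174, 156 and 157 CPM with miR-34a-WT and 182, 159, 149.9 and 159 CPM with miR-34a-RS, against 129, 129, 124, 122 and 118 CPM in control libraries. Every library with a duplex lay above every control. The log2 fold change was 0.43 (SE 0.05) with miR-34a-WT, or 34.6% (edgeR, adjusted p = 2.93e-07), and 0.39 (SE 0.06) with miR-34a-RS, or 30.9% (adjusted p = 3.92e-06). Relative to miR-34a-WT, the miR-34a-RS value was -0.04 (-0.15 to 0.07). RBPJ has no seed match in its coding region or 3′ UTR.

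HES1, a repressor gene that Notch switches on, and NUMB, which opposes the receptors, were each called against control with 1 of the 2 duplexes. HES1 had 31.5, 34.5, 33.5, 33.4 and 33.2 CPM with miR-34a-WT and 29.2, 26.97, 32.3 and 30.5 CPM with miR-34a-RS, against 31.7, 33.1, 33.3, 35.5 and 36.3 CPM in control libraries, with overlap between all groups. With miR-34a-WT its difference from control was -0.03 (95% interval -0.14 to 0.08, edgeR adjusted p = 0.703). With miR-34a-RS it fell by 0.19 (SE 0.06, adjusted p = 0.0104), a call that rests on the lowest library, replicate 2: without it the value was -0.15 with adjusted p = 0.0612. The call was also lost with no filter on low counts (-0.16, edgeR adjusted p = 0.0573). Relative to miR-34a-WT, the miR-34a-RS value stood at -0.16 (adjusted p = 0.190), and at -0.15 with the replicate block (SE 0.05, adjusted p = 0.0147), lower with miR-34a-RS in 4 of 4 pairs.

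NUMB had 61.0, 56.3, 59.5, 61.3 and 64.0 CPM with miR-34a-WT and 70.8, 70.3, 65.7 and 69.8 CPM with miR-34a-RS, against 65.5, 70.5, 68.2, 68.5 and 66.1 CPM in control libraries. The miR-34a-WT libraries lay below all others, while miR-34a-RS and control libraries overlapped. NUMB fell by 0.17 (SE 0.04) with miR-34a-WT (edgeR, adjusted p = 0.00365), and with miR-34a-RS its difference from control was 0.03 (-0.07 to 0.12, adjusted p = 0.687). Between the duplexes, it was higher under miR-34a-RS, by 0.19 (SE 0.05, 95% interval 0.10 to 0.29; edgeR's quasi-likelihood test, adjusted p = 0.0295), or 14.4%, and in 4 of 4 pairs. The call is near the threshold: it was lost without miR-34a-WT replicate 1 (adjusted p = 0.0573), 2 (0.0811), 3 (0.0875) or 4 (0.0568), without miR-34a-RS replicate 2 (0.109) or 5 (0.0878), and in a fit of the 2 groups alone (0.0613). With the replicate block the value was 0.20 (SE 0.04, adjusted p = 6.43e-05).

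Libraries of miR-34a-WT and control did not overlap for 7 genes that were lower and 1 that was higher, against 15.1% and 13.8% of all tested genes (28.9% in either direction). For miR-34a-RS and control these counts were 6 and 1, against 14.4% and 12.6% (27.0% in either direction), HES1 being called but overlapping. The 2 genes whose miR-34a-RS and miR-34a-WT libraries did not overlap, both higher with miR-34a-RS, were NOTCH3 and NUMB, where 4.81% of all genes did not, 2.66% higher and 2.16% lower. With the replicate block NOTCH1, NOTCH3, MAML1 and NUMB were called higher and HES1 lower with miR-34a-RS, 4 and 1 of 10, against 6.38% and 7.07% of the 17639 genes tested in that fit (13.5% in either direction).

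Ordered by level per kilobase of principal transcript, RBPJ stood highest with the duplexes, at 29.04 CPM/kb with miR-34a-WT and 28.2 under miR-34a-RS. NOTCH2 held rank 5 there at 10.5 and 10.7 CPM/kb, overlapping JAG2 at 9.36 and 9.34. Between them, with miR-34a-WT, lay HES1 at 21.1, NUMB at 18.3 and MAML1 at 17.7 CPM/kb, NUMB and MAML1 overlapping, and with miR-34a-RS NUMB at 20.9, MAML1 at 19.4 and HES1 at 18.8 CPM/kb, where NUMB overlapped MAML1 and MAML1 overlapped HES1. The low end was the same with both duplexes: NOTCH3 at 3.83 under miR-34a-WT and 5.02 under miR-34a-RS, NOTCH1 at 2.30 and 2.49 and DLL1 at 2.29 and 2.39, these overlapping, and JAG1 at 0.635 and 0.629 CPM/kb. Control cells had NOTCH2 at 25.8, MAML1 at 24.3, RBPJ at 21.6, HES1 at 21.5, NUMB at 20.5, JAG2 at 10.1, NOTCH3 at 7.37, DLL1 at 3.96, NOTCH1 at 3.85 and JAG1 at 0.868 CPM/kb. In control cells neighbours in that order overlapped between NOTCH2 and MAML1, among RBPJ, HES1 and NUMB, and between DLL1 and NOTCH1. With merged exons as the length MAML1 headed the order in control cells, at 23.5 CPM/kb, and NUMB stood below JAG2, so the order among the upper genes depends on the length taken. JAG1 was lowest with either length in all 3 groups.

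The genes whose profile over the 14 libraries was nearest to NOTCH2, by the root mean square difference of log2 CPM taken relative to the control mean, were AMER1 (0.051), ELK3 (0.087) and CTDSPL (0.090) among 10872 genes searched. Their log2 fold changes were -1.32, -1.28 and -1.245 with miR-34a-WT and -1.30, -1.24 and -1.32 with miR-34a-RS. Nearest to NOTCH3 were LRRC8A (0.068), MRTFA (0.082) and MAPK8IP2 (0.089), which stood at -0.98, -0.92 and -0.85 with miR-34a-WT and at -0.60, -0.62 and -0.55 with miR-34a-RS. Nearest to RBPJ were CDC27 (0.044), TNKS2 (0.048) and NDUFA5 (0.050), with 0.41, 0.43 and 0.44 under miR-34a-WT and 0.37, 0.40 and 0.44 under miR-34a-RS. These likenesses were chosen from the same libraries and are a description.

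Of a wider list of 62 other pathway genes, 59 were tested, DLK1, DNER and DTX1 being too low. Under miR-34a-WT 19 fell and 7 rose, and with miR-34a-RS 17 fell and 9 rose. Over all tested genes 21.3% fell and 18.9% rose with miR-34a-WT, and 18.4% fell and 16.2% rose with miR-34a-RS, so that the genes of the list that rose with miR-34a-RS were near the share over all genes. The list's median log2 fold changes were -0.04 under miR-34a-WT and 0.0025 under miR-34a-RS, against -0.02 and -0.01 over all genes. Of the 12 genes with an 8mer or 7mer-m8 in the 3′ UTR of the principal transcript, 8 fell under miR-34a-WT and 8 under miR-34a-RS. Of the 47 without one, 11 fell under miR-34a-WT and 9 under miR-34a-RS, about the shares of all genes that fell. The counts by role that follow are of few genes and are read against the same shares, with no test of the difference.

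By role, the largest called changes among genes with a mean of at least 1 CPM were spread over several steps. HDAC1, a histone deacetylase of corepressor complexes, fell by 0.93 (SE 0.04) with miR-34a-WT and 0.94 (SE 0.04) with miR-34a-RS (edgeR, adjusted p = 6.76e-16 and 3.73e-15). NUMBL, a relative of NUMB with 2 such 3′ UTR matches, fell by 0.92 (SE 0.06) and 0.75 (SE 0.06). Among the receptor proteases, 4 of 9 fell and 1 rose with each duplex, where 21.3% of all genes fell and 18.9% rose with miR-34a-WT and 18.4% and 16.2% with miR-34a-RS. The gamma-secretase subunit genes PSEN2 and APH1A stood at -0.74 (SE 0.09) and -0.67 (SE 0.04) with miR-34a-WT and at -0.52 and -0.61 with miR-34a-RS, while PSENEN, the gene of another subunit, rose by 0.66 (SE 0.07) and 0.55 (SE 0.08). DLL4, a Delta-family ligand gene, fell by 0.57 (SE 0.18) with miR-34a-RS and by 0.47 with miR-34a-WT. Of 14 corepressor genes, 5 rose with each duplex, and 3 fell under miR-34a-WT and 2 under miR-34a-RS, where those that fell were near the share over all genes (21.3% and 18.4%).

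Among the 9 other target genes of Notch, 0 rose with either duplex, 4 fell under miR-34a-WT and 5 under miR-34a-RS, beside 21.3% and 18.4% of all genes that fell and 18.9% and 16.2% that rose. CCND1, the cyclin D1 gene, was at -0.92 (SE 0.07) with miR-34a-WT and -1.23 (SE 0.07) with miR-34a-RS, both called. Its longest 3′ UTR match was a 7mer-A1, as was that of HEY1. CCND1 was the list's gene called between the duplexes, at -0.31 (SE 0.08, edgeR adjusted p = 0.0401). With upper-quartile scaling, and without any of miR-34a-WT replicates 2 to 5, miR-34a-RS replicates 2, 3 or 5, or control replicates 2 or 3, the count of genes lower on the list was 0. CCND1, APH1A and PSENEN share 497, 490 and 332 exon bases with a gene on the other strand (LTO1, C1orf54 and U2AF1L4). Libraries of this kit carry no strand, so reads from the shared bases cannot be told apart from those of the partner. In all libraries together LTO1, C1orf54 and U2AF1L4 had 14239, 708 and 1601 counts, against 6053, 65278 and 7841 for CCND1, APH1A and PSENEN. Of the 10 Notch genes above, JAG1, JAG2 and NUMB overlap another annotated gene, each with 0 counts in the table.

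**Figure D5:**
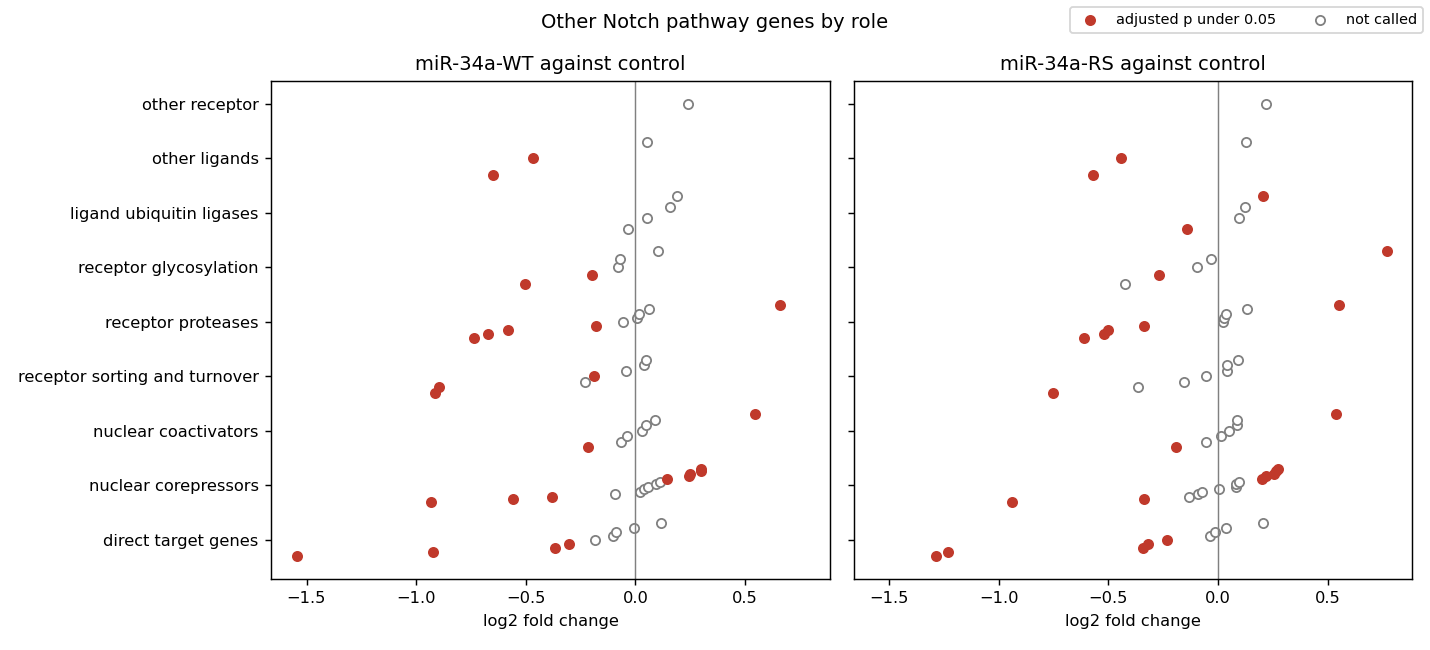
Log2 fold change of the 59 tested genes of the wider list, by role, with miR-34a-WT (left) and miR-34a-RS (right) against control. Each point is a gene, filled where edgeR's adjusted p was under 0.05, and points within a role are spread vertically by rank alone. Of the filled points 19 lie to the left of 0 and 7 to the right with miR-34a-WT, and 17 and 9 with miR-34a-RS, where 3904 and 3469 of all tested genes fell and rose with miR-34a-WT and 3378 and 2968 with miR-34a-RS.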

How the data were processed

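Per the labels' protocols, libraries were made with the TruSeq RNA v2 kit, which selects polyadenylated RNA without marking strand. The authors deposited whole-number read counts per gene, made with STAR 2.7.11a, featureCounts of Subread 2.0.3 and GRCh38, with edgeR 3.42.4 also listed, per the submitters' processing notes. The annotation release and strand setting are not given in the sources used here. Counts were tested with edgeR 4.0.16 (R 4.3.3): TMM factors, filterByExpr, robust glmQLFit over 14 libraries with 3 group means, glmQLFTest, and Benjamini-Hochberg adjustment over 18321 genes at 0.05. On simulated counts 58% of genes changed 1.25-fold and 82% of those changed 1.5-fold in the comparison of the duplexes were recovered. The simulation gave every gene the same spread beyond counting noise and no deviation shared by same-numbered libraries. Its rates may therefore differ from those in the real libraries. Log2 CPM used a prior count of 2. Totals were 22.2 to 36.3 M, and the 26 pairs of replicates within a group differed by more than counting noise (chi-square per degree of freedom 2.72 to 14.3). Alternatives were DESeq2 1.42.0, upper-quartile and RLE factors, no filter, the 2 groups alone, a replicate block, and each library left out. The block was fitted over the same-numbered libraries of the 2 compared groups alone.

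Same-numbered miR-34a-RS and miR-34a-WT libraries deviated together (correlations of deviations from group means 0.37 to 0.72 in 4 pairs), so the numbers pair these groups, a reading from the data and not from the labels. Seed matches came from GENCODE 29 transcripts on GRCh38, which hold genes with 99.7% of the counts. The members and lists were chosen with earlier results of these data known. Beyond the 10 members, the text names up to 6 wider-list genes per comparison, those with the largest called changes at a mean of at least 1 CPM, genes that share reads with a member, and the 3 nearest profiles to NOTCH2, NOTCH3 and RBPJ. The target genes of the list that were called with neither duplex are named too. A list of blood markers was also summed, and its result is not reported here.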

Additional observations from a re-analysis of the deposited data

How the results depend on the processing

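Of 603 values of the 10 genes under 21 other settings, 576 kept their direction and their side of the threshold, 9 lost a call, 4 gained one and 14 changed sign. Those that changed sign were differences near 0 of miR-34a-RS from miR-34a-WT. For JAG2 they were 0.012 with upper-quartile factors, 0.0089 with no filter and 0.031 with the replicate block. With each library left out in turn the range was -0.044 to 0.065 for JAG2, -0.077 to 0.036 for JAG1 and -0.013 to 0.055 for NOTCH2. NOTCH3 kept its call between the duplexes in all 20 other settings, at 0.37 to 0.42 (adjusted p at most 0.00776). The lost calls were those of NUMB and HES1 given above.

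With miR-34a-RS relative to miR-34a-WT the number of the 10 genes called higher was 1 in a fit of the 2 groups alone, 4 with the replicate block, and 1 to 2 with libraries left out; the number lower was 1 with the block. With miR-34a-RS against control, 6 to 7 were lower with libraries left out. Over all tested genes 188 were higher and 98 lower with miR-34a-RS relative to miR-34a-WT, the comparison of the counts that follow. With the block 1126 were higher and 1247 lower, 60 were lower in a fit of the 2 groups alone and 220 with DESeq2, and leaving out libraries gave 111 to 391 higher and 31 to 339 lower; the cause was not tested. On the wider list, with 59 genes tested in the main fit, the block called 7 higher and 4 lower between the duplexes. Over all genes the block called 6.38% higher and 7.07% lower, so those lower on the list were near that share. Correlations of same-numbered libraries were -0.16 to 0.56 for miR-34a-WT and control (mean 0.29) and -0.0015 to 0.48 for miR-34a-RS and control (mean 0.27), against means of -0.07 for other pairs. Pair 2 was below 0 in both and not every library correlated best with its own number, so these numbers were not taken as pairs. There the block added the call of JAG2 with miR-34a-WT (-0.11, edgeR adjusted p = 0.0386) and changed no other call of the 10 genes. Scaling moved the median of all genes by at most 0.02. Counts of JAG1, under 215 in every library, limit what can be detected for it.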
